A study of Mus musculus with 12 samples.

Results

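The haem synthesis enzymes described here are 8 genes, Alas1, Alas2, Alad, Uros, Urod, Cpox, Ppox and Fech, taken by name from a table of 41214 genes in the RNA of mouse leukaemias. All 8 were in the table and all 8 passed the filter on low counts, Alas2 with 3 of the 4 libraries over the filter's level of 0.946 CPM (counts scaled to a common library size) and the others with all 4. Not every step of the pathway is covered by these genes. The leukaemic cells came from C57/BL6 mice with a NUP98-HOXD13 transgene, a fusion oncogene that gives mice myelodysplasia followed by leukaemia, in 2 Gfi1 genotypes. The KD mice were Gfi1 KD/KD (homozygous) and the KI mice Gfi1 KI/wt (heterozygous), and the transgene was common to both. Gfi1 encodes a zinc finger repressor of blood progenitors, and lines of these names are known to carry human GFI1 sequence in place of the mouse coding sequence, with reduced expression from the KD allele. There were 2 mice and 2 RNA libraries per genotype. The sources used here give no age, tissue of origin or treatment. Histone H3 and H3K9ac libraries of the same design were not analysed here.

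Haem is built from glycine and succinyl-CoA by a chain of enzymes that starts in the mitochondrion, passes through the cytosol and returns to the mitochondrion for its last steps. The first step is the rate-limiting one and has 2 genes: Alas1 is used in all tissues and is held down by haem itself, whereas Alas2 is used by red cell precursors, where it is driven by the transcription factor GATA1 and its translation depends on iron. The later enzymes are made in every cell and in larger amounts in red cell precursors, which need haem for haemoglobin. Myeloid cells also make haem, for myeloperoxidase and the phagocyte oxidase.

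Gene counts summed to 11934542 and 10263454 in KD replicates 1 and 2, and to 4581593 and 10869534 in KI replicates 1 and 2. The 3 genes that each held over 1% of a library's counts together made up 19.4% and 21.2% of the KD libraries and 39.0% and 44.4% of the KI libraries, so the choice of scaling matters below. Levels are given as CPM after scaling by TMM, which corrects for such a difference in composition. Receptor genes of smell, pheromones and taste, foreign to blood cells, added up to 147 and 143 CPM in the KD libraries and 979 and 237 CPM in the KI libraries, the highest sum being in the shallow KI replicate 1. Gfi1 counts lay at 7.22 and 1.12 CPM in the KD mice, against 36.2 and 89.0 CPM in the KI mice. By the labels only the KI mice keep a wild-type mouse allele. These counts therefore go with the genotype labels but do not measure expression from the KD or KI allele. Genes of a myeloid identity were high in all 4 libraries, with Mpo, a granule enzyme of myeloid cells, at 1397 and 2177 CPM in KD and 897 and 2040 CPM in KI, and Spi1, a myeloid transcription factor, at 177 and 159 CPM in KD and 129 and 130 CPM in KI, both named with their values known. The Y-linked gene Eif2s3y was counted at 58.0 CPM in KD replicate 1 and 83.7 CPM in KI replicate 1, against 0.0864 CPM in KD replicate 2 and 0 in KI replicate 2, so replicate number goes with the sex of the mice in both genotypes.

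Upstream sequences of the red cell synthase, of Cpox and of the housekeeping synthase are shown first, since they are the genes on which the results below turn. Each is the 250 bases before the annotated start, from RefSeq on GRCm38.p6, read 5′ to 3′ on the gene's own strand. Capitals mark the words that GATA factors recognise, which were AGATAA or its variant ending in G, AGATAG, as well as TGATAA or its own variant ending in G, TGATAG. Capitals also mark CACCC, the word that KLF factors recognise. Each word was searched on both strands.
Alas2 (chrX:150547167-150547416, plus strand): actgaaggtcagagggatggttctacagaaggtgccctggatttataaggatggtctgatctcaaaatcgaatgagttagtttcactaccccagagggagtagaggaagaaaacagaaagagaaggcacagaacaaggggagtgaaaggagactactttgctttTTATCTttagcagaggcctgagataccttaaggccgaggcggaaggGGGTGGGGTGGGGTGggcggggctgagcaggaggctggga
Cpox (chr16:58669958-58670207, plus strand): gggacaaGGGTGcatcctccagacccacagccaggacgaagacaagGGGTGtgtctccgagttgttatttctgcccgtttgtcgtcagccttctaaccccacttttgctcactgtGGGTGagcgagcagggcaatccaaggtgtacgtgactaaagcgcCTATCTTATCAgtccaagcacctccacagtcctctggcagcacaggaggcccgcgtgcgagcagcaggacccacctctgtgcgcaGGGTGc
Alas1 (chr9:106247955-106248204, minus strand): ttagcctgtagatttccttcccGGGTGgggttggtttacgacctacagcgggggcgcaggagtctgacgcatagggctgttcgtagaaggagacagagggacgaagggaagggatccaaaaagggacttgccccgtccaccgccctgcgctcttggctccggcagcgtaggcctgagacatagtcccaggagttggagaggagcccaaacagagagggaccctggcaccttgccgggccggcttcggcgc

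The Alas2 window held 1 GATA word, which began 86 bases before the start, and 3 CACCC words between 40 and 26 bases before it. The Cpox window held 2 GATA words that overlap by 1 base, the first beginning 91 bases before the start, and 4 CACCC words. The Alas1 window held no GATA word and 1 CACCC word, 228 bases before the start. Of all 32851 windows of the same length, 26.5% held a GATA word, 6.40% held 2 or more, and 52.0% held a CACCC word. Of the 8 genes, 7 had windows in the table, 10 windows in all because Alas1, Alad and Uros have more than 1 annotated start. Besides Alas2 and Cpox, GATA words occurred in the second window of Uros, 205 and 68 bases before that start. In the mouse, Alad and Uros are known to have separate housekeeping and erythroid promoters, and counts per gene do not tell transcripts of the separate starts apart. A word match is a description of these letters and no evidence of binding.

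Alas2, the red cell form of the first enzyme (ENSMUSG00000025270, chromosome X, 150547417 to 150570622), was lower in both KD mice than in both KI mice and nearly absent from 1 of them. It had 44 and 1 counts in the KD libraries, against 81 and 196 counts in the KI libraries. On the CPM scale this was 3.11 and 0.0864 in KD mice, a mean of 1.60 ± 2.14 (SD, n = 2), against 18.8 and 23.3 in KI mice, a mean of 21.0 ± 3.16 (SD, n = 2). The KI mice lay within 1.24 times of each other, whereas KD replicate 1 lay 36.04 times above KD replicate 2, a ratio that rests on a single count. The exact Poisson interval of that single count runs from 0.00219 to 0.481 CPM (95%, counting error only), below the interval of every other library. The fitted log2 fold change, KD over KI, was -3.68 ± 1.22 (SE), with adjusted p = 0.518 over the 13822 genes tested by edgeR's quasi-likelihood test with Benjamini-Hochberg adjustment, so Alas2 did not pass. Leaving out KD replicate 1 gave -7.61, and leaving out KD replicate 2 gave -2.69. Leaving out KI replicate 1 gave -3.64, and leaving out KI replicate 2 gave -3.37. Each of these fits leaves 1 mouse alone in its genotype, whose spread is taken from the other genotype, so only effect sizes are given. Without the filter on low counts Alas2 passed in edgeR's test (-3.51, adjusted p = 0.000965), where 140 of 30472 genes were called lower. In DESeq2 Alas2 did not pass (-3.56, adjusted p = 0.0606). In bulk RNA, fewer red cell precursors and less RNA per precursor cannot be told apart. In the annotation used here a gene model of Apex2, a DNA repair nuclease, spans the whole of Alas2. Apex2 counts stood at 15.9 and 15.6 CPM in KD and 15.8 and 15.4 CPM in KI, a log2 fold change of 0.01 ± 0.34 (SE).

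Alas1, the housekeeping form (ENSMUSG00000032786, chromosome 9, 106233455 to 106247954), showed no such separation of the genotypes. It had 1390 and 2048 counts in the KD libraries, against 369 and 1567 counts in the KI libraries. That came to 98.4 and 177 CPM in KD mice, a mean of 138 ± 55.6 (SD, n = 2), against 85.6 and 186 CPM in KI mice, a mean of 136 ± 70.9 (SD, n = 2). The genotypes overlapped fully, and replicate 2 was the higher mouse in each. The log2 fold change was 0.02 ± 0.49 (SE; adjusted p = 1.00 in edgeR's test), which leaves room for a difference of either sign. Its sign changed between settings, from -0.43 without KD replicate 2 to 0.76 without KI replicate 2. With library size only it was 0.48, where the median of all genes tested was 0.37.

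**Figure D1:**
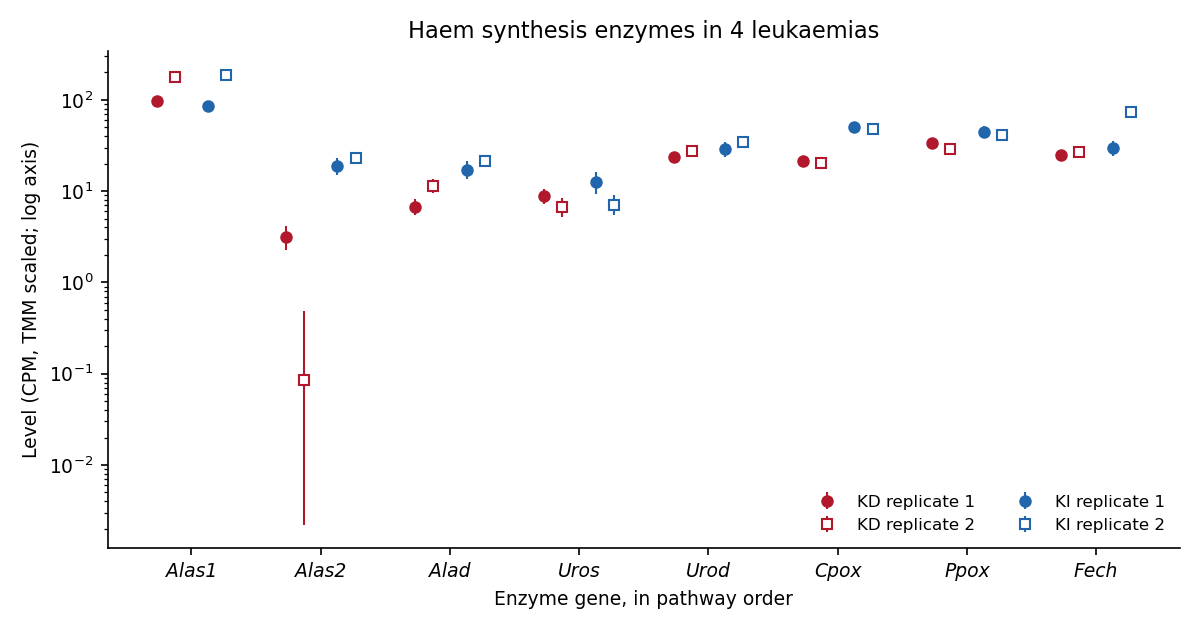
Level of each enzyme gene in each library in CPM (TMM scaled, log axis), in pathway order, with KD mice in red left of KI mice in blue, filled circles for replicate 1 and open squares for replicate 2; bars are exact 95% Poisson intervals of the count. Alas2 lies at 3.11 and 0.0864 CPM in the KD mice and at 18.8 and 23.3 CPM in the KI mice, while Alas1 overlaps between genotypes at 85.6 to 186 CPM.

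Set beside each other inside a library, where no scaling between libraries enters, the synthases showed a shift away from Alas2 in the KD mice. Alas2 made up 3.07% (exact binomial 95% interval 2.24 to 4.10) and 0.0488% (0.00124 to 0.272) of the counts on both genes in KD replicates 1 and 2. In KI replicates 1 and 2 it made up 18.0% (14.6 to 21.9) and 11.1% (9.69 to 12.7). Both KD shares lay below both KI shares with no overlap of the counting intervals. The log2 ratio of Alas2 to Alas1 counts, with 0.5 added to each, averaged -7.69 ± 3.85 in KD and -2.59 ± 0.58 in KI (SD, n = 2 each), a difference of -5.10. A two-sided exact permutation test gave p = 0.333, the smallest that 2 mice against 2 allow, so this comparison could not pass at 0.05. Without KD replicate 2 the difference was -2.38, and without KD replicate 1 it was -7.83. These shares compare libraries and not the amounts of the 2 transcripts, since the genes differ in length.

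Alas2 kept nearly the same proportion to other red cell genes in 3 of the 4 libraries. Of a list of 24 red cell markers (globins, membrane and blood group genes), 23 were in the table and all 23 were tested. Their summed level was 131 and 9.16 CPM in KD mice, against 817 and 844 CPM in KI mice. All 23 had negative fold changes, as did 55.5% of all genes tested, with a median of -3.55. Of the 23, 21 lay lower in both KD mice than in both KI mice, where 23.5% of all genes tested did. The 2 that overlapped were Car1 and Aqp1. Car1 lay at 3.61 and 0 CPM in KD and 2.09 and 43.3 CPM in KI. Aqp1 lay at 5.94 and 0.605 CPM in KD and 5.10 and 3.08 CPM in KI. A gene could pass the low-count filter through its KI level alone, which limits what these counts of genes show. edgeR called 0 of the 23 after adjustment and DESeq2 called 8 as lower, where it called 1.01% of all genes as lower. In KD replicate 2, 4 of the 23 had no counts, namely Hba-a1, an alpha globin, Epor, the erythropoietin receptor, Kel, a blood group protein, and Car1, a carbonic anhydrase, and in each of the other libraries 0 of 23 lacked counts. The beta globin Hbb-bs had 235 and 6 counts in KD, against 549 and 1115 counts in KI. Alas2 counts amounted to 2.37% of the marker counts in KD replicate 1 (exact 95% interval of the ratio 1.72 to 3.20), and to 2.30% (1.82 to 2.87) and 2.76% (2.38 to 3.18) in KI replicates 1 and 2. In KD replicate 2 the ratio was 0.943% on 1 Alas2 count (0.0237 to 5.37), an interval that takes in the other 3 values. The part that the number of red cell precursors plays in the Alas2 difference was not tested.

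**Figure D2:**
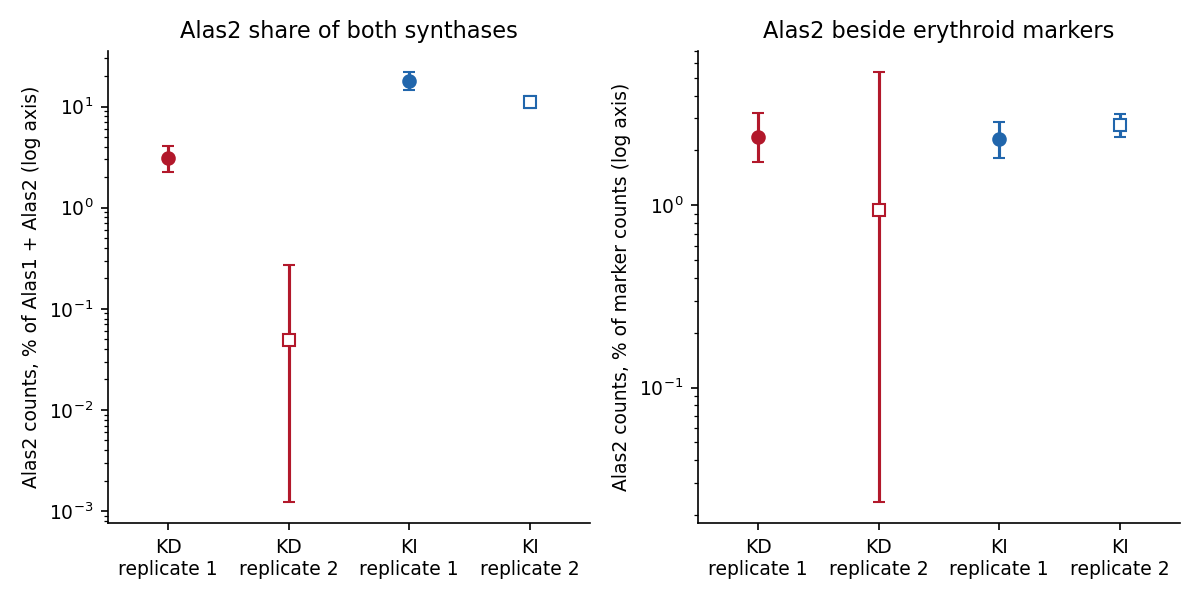
Left, Alas2 counts as a percentage of Alas1 and Alas2 counts together; right, Alas2 counts as a percentage of the summed counts of 23 red cell marker genes, each by library on a log axis with exact 95% intervals of counting error. The left share is 3.07% and 0.0488% in the KD mice and 18.0% and 11.1% in the KI mice, whereas on the right KD replicate 1 (2.37%) lies among the KI mice (2.30% and 2.76%).

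By a root mean square difference of log2 CPM, each gene centred on its own mean over the 4 libraries, the genes closest to Alas2 were sought among 9632 named genes whose mean over the 4 libraries was at least 5 CPM, a limit that a gene could pass through its KI level alone. The closest were Car2, a carbonic anhydrase (0.09 log2 units), Sptb, the erythrocyte beta spectrin (0.18), and Rhag, the Rh-associated glycoprotein (0.19). Next came Cldn13, a claudin (0.21), Hba-a2, an alpha globin (0.21), and Add2, an adducin of the membrane skeleton (0.26). All but Cldn13 were on the marker list. Car2 stood at 10.1 and 0.432 CPM in KD, against 63.3 and 70.5 CPM in KI. Nearest to Alas1 lay Mrps26, a mitochondrial ribosomal protein (0.02), Cebpa, a transcription factor of the granulocyte and monocyte lineage (0.02), and Nomo1, a membrane protein of the endoplasmic reticulum (0.03). Cebpa stood at 105 and 192 CPM in KD, against 93.7 and 207 CPM in KI, the same order of the 4 mice as Alas1. With 4 libraries this likeness is a description only.

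Alad, the cytosolic enzyme that joins 2 molecules of aminolevulinic acid into porphobilinogen (chromosome 4), lay at 6.72 and 11.3 CPM in KD mice and 17.2 and 21.2 CPM in KI mice, on 95 and 131 counts in KD and 74 and 179 counts in KI. The groups did not overlap, and the means were 9.02 ± 3.25 in KD and 19.2 ± 2.88 in KI (SD, n = 2 each). The log2 fold change was -1.09 ± 0.43 (SE; adjusted p = 0.518 in edgeR's test), between -1.46 without KD replicate 2 and -0.67 without KD replicate 1. The exact 95% Poisson interval of KD replicate 2 ran to 13.4 CPM and that of KI replicate 1 began at 13.5 CPM, so the counting intervals of the genotypes nearly met. Against the red cell markers, Alad counts were 5.12% and 124% of the marker counts in KD and 2.1% and 2.52% in KI. A gene lowered less than the markers has a higher ratio in KD, so this is not particular to Alad.

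Uros and Urod make and then trim the first ring-shaped intermediates in the cytosol, and both had small differences between genotypes. Uros, uroporphyrinogen synthase (chromosome 7), lay at 8.77 and 6.65 CPM in KD mice and 12.5 and 7.12 CPM in KI mice, on 54 to 124 counts per library. The groups overlapped, and the log2 fold change was -0.34 ± 0.51 (SE; adjusted p = 0.952 in edgeR's test). It was 0.26 without KI replicate 1 and 0.049 with library size only, where the median of all genes tested was 0.37. Uros shares 1135 bp of its span with Bccip, a cell cycle gene, and since no source used here states the strand setting of the counting, reads of that stretch cannot be assigned to one gene with certainty. Urod, the decarboxylase (chromosome 4), lay at 23.6 and 27.5 CPM in KD mice and 28.8 and 34.4 CPM in KI mice, so the highest KD mouse was just under the lowest KI mouse. The counting interval of KD replicate 2, 24.5 to 30.7 CPM, took in the level of KI replicate 1. Its log2 fold change was -0.31 ± 0.31 (SE; adjusted p = 0.882 in edgeR's test), and 0.12 with library size only, below that median of all genes.

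Cpox, the coproporphyrinogen oxidase of the mitochondrial intermembrane space (ENSMUSG00000022742, chromosome 16, 58670208 to 58680391), had the lowest p of the 8 genes and the most even replicates. It had 304 and 233 counts in the KD libraries, against 216 and 409 counts in the KI libraries. That came to 21.5 and 20.1 CPM in KD mice, a mean of 20.8 ± 0.98 (SD, n = 2), against 50.1 and 48.5 CPM in KI mice, a mean of 49.3 ± 1.11 (SD, n = 2). The mice of a genotype agreed within 1.07 times, and the genotype means differed 2.37 times. The log2 fold change was -1.24 ± 0.29 (SE; unadjusted p = 0.00581, adjusted p = 0.518 in edgeR's test), and DESeq2 gave -1.16 with adjusted p = 0.158. Leaving out each library in turn gave -1.19 to -1.08. Against the red cell markers, Cpox had a higher ratio in both KD mice than in both KI mice. The markers summed to 817 and 844 CPM in KI and to far less in KD. A gene lowered less than the markers therefore has a higher ratio in KD, so this is not particular to Cpox. Cpox had 16.4% of the marker counts in KD replicate 1 (exact 95% interval 14.5 to 18.5). In KI replicates 1 and 2 it had 6.13% (5.32 to 7.04) and 5.75% (5.19 to 6.35). In KD replicate 2, where the markers summed to 106 counts, Cpox had 233. Its level there was within 1.07 times of KD replicate 1, and the marker sums of these mice were 131 and 9.16 CPM. The other enzymes except Alas2 also had higher ratios in both KD mice. Ppox, for example, had 25.9% and 316% of the marker counts in KD and 5.48% and 4.92% in KI. The part of red cell precursors in the Cpox difference was not tested.

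Ppox and Fech carry out the last steps, the oxidation to protoporphyrin and the insertion of iron. Ppox (chromosome 1) lay at 34.0 and 28.9 CPM in KD mice and 44.8 and 41.5 CPM in KI mice, groups that did not overlap. It rested on 480 and 335 counts in KD and 193 and 350 counts in KI. Its log2 fold change was -0.45 ± 0.29 (SE; adjusted p = 0.696 in edgeR's test), and -0.038 with library size only, where the median of all genes tested was 0.37. Fech, ferrochelatase, lay at 25.2 and 26.95 CPM in KD mice and 29.5 and 73.8 CPM in KI mice. KI replicate 2 stood apart, and KI replicate 1 was close to the KD mice. The log2 fold change of -0.99 ± 0.48 (SE; adjusted p = 0.568 in edgeR's test) was -0.08 without KI replicate 2 and -1.37 without KI replicate 1, so its size rests on 1 library.

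**Figure D3:**
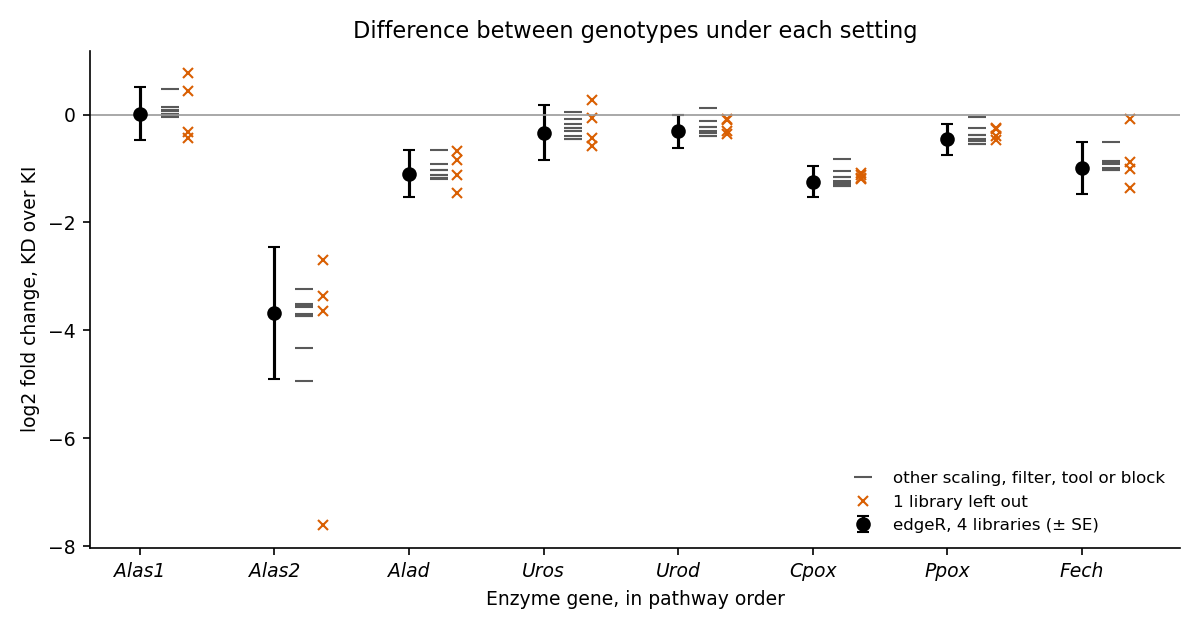
Log2 fold change of KD over KI for each enzyme gene: black points with SE bars from edgeR on 4 libraries, grey dashes from other scalings, filters, tools or the block, orange crosses with 1 library left out. Alas2 runs from -7.61 to -2.69 and Cpox from -1.33 to -0.82, all below 0, while Alas1 (-0.43 to 0.76), Uros (-0.59 to 0.26) and Urod (-0.39 to 0.12) cross it.

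Shares of the 8 enzymes' summed counts within each library need no scaling between libraries. The sum was 221 and 298 CPM in KD mice and 287 and 436 CPM in KI mice, ranges that overlap. Alas1 held 44.5% and 59.3% of it in KD and 29.8% and 42.7% in KI, so both KD shares were the higher although the level of Alas1 overlapped. Alas2 held 1.41% and 0.0289% in KD and 6.54% and 5.34% in KI. Cpox held 9.72% and 6.74% in KD and 17.4% and 11.1% in KI, and Alad 3.04% and 3.79% in KD and 5.98% and 4.87% in KI, both lower in both KD mice. The shares of Urod, Ppox and Fech overlapped. Urod held 10.7% and 9.20% in KD and 10.0% and 7.90% in KI, and Ppox 15.4% and 9.70% in KD and 15.6% and 9.53% in KI. Fech held 11.4% and 9.03% in KD and 10.3% and 16.9% in KI, the last again KI replicate 2. A share falls when another member's grows, so these values are not independent of one another.

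Across the 8 enzymes, 7 had a negative fold change and 1 a positive one, with a median of -0.72, beside a median of -0.06 over all genes tested, of which 55.5% were negative. Both KD mice lay below both KI mice for 6 of the 8 (Alas2, Alad, Urod, Cpox, Ppox and Fech), where 23.5% of all genes tested did, and above them for 0 of the 8, where 14.5% of all genes tested did. With library size only, a scaling that moves the median of all genes to 0.37, the 6 became 3 (Alas2, Alad and Cpox), where 12.8% of all genes lay so, and the median of the 8 became -0.27. Unadjusted p was under 0.05 for Alas2, Alad and Cpox, all lower in KD, where 8.34% of all genes were lower and 1.29% higher at that level. No enzyme passed with adjusted p in edgeR's test on 4 libraries, nor did any of the 13822 genes tested (0% lower and 0% higher). DESeq2 called 0 of the 8, where it called 1.01% of all genes as lower and 0.0362% as higher in KD. Without Alas1 and Alas2, the other 6 enzymes summed to 120 and 121 CPM in KD mice, against 183 and 227 CPM in KI mice. Those sums were equal in the KD mice to within 2 CPM, and the red cell marker sums of these mice were 131 and 9.16 CPM. The part of red cell precursors in these values was not tested.

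Genes that serve the pathway from outside, by bringing substrates into the mitochondrion, moving intermediates or building iron-sulphur clusters, had a median near that of all genes tested. Of 18 such genes, all tested, 10 were negative and 8 positive, with a median of -0.08. Both KD mice lay below both KI mice for 4 of them and above for 2, where 23.5% and 14.5% of all genes did, so these counts are near the background. Unadjusted p was under 0.05 for 3, all lower, where 8.34% of all genes were. Fam210b, a mitochondrial protein needed for haem synthesis in red cell precursors, lay at 4.10 and 6.05 CPM in KD mice and 14.4 and 11.98 CPM in KI mice (log2 fold change -1.37 ± 0.47, SE). Abcb10, a mitochondrial transporter that binds mitoferrin, lay at 33.2 and 32.9 CPM in KD mice and 48.2 and 86.4 CPM in KI mice (-1.03 ± 0.37). Slc25a37, mitoferrin itself, which carries iron into the mitochondrion of red cell precursors, lay at 59.6 and 29.9 CPM in KD mice and 97.6 and 91.2 CPM in KI mice (-1.08 ± 0.40). Each had adjusted p = 0.518 in edgeR's test. Genes named with their values known include Abcb6, a mitochondrial porphyrin transporter, at 2.05 and 3.37 CPM in KD mice and 5.33 and 8.78 CPM in KI mice (-1.39 ± 0.64). The 2 higher in both KD mice were Ogdh and Snx3, also named with their values known. Ogdh lay at 154 and 170 CPM in KD mice and 107 and 149 CPM in KI mice (0.33 ± 0.30). Snx3 lay at 48.9 and 47.9 CPM in KD mice and 34.3 and 43.5 CPM in KI mice (0.31 ± 0.29). Other partners of haem synthesis in red cells overlapped between genotypes: Slc25a38, the glycine carrier, had 0.37 ± 0.41, Tmem14c, a porphyrin transporter, 0.17 ± 0.39, and Glrx5, of iron-sulphur cluster assembly, -0.39 ± 0.52.

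Genes of haem export, handling and breakdown gave no common direction. Of 14 listed genes 12 were tested, 8 negative and 4 positive, with a median of -0.10. With library size only this median was 0.35 and that of the 18 genes above 0.36, beside 0.37 for all genes. Both KD mice lay below both KI mice for 2 of the 12, a share no higher than the 23.5% of all genes. Blvrb, a biliverdin reductase abundant in red cells, lay at 12.5 and 9.07 CPM in KD mice and 19.7 and 27.8 CPM in KI mice (log2 fold change -1.14 ± 0.39, SE; adjusted p = 0.518 in edgeR's test). Abcg2, a porphyrin exporter, lay at 1.06 and 0.173 CPM in KD mice and 3.48 and 1.54 CPM in KI mice, and Pgrmc1, a haem-binding membrane protein, had -0.45 ± 0.47 with overlapping groups. Hmox1, the inducible haem oxygenase, was named with its values known and lay at 30.1 and 25.3 CPM in KD mice and 32.7 and 10.1 CPM in KI mice. Of 9 regulators that sense haem or iron, 8 were tested, 5 positive and 3 negative, with a median of 0.08 that was -0.0066 with upper quartile factors. Nr1d1, a nuclear receptor that binds haem, had -1.16 ± 0.79 on levels below 3 CPM, Ireb2, an iron regulatory protein, 0.59 ± 0.46, and Atf4, a stress factor downstream of the haem-regulated kinase, -0.32 ± 0.30. In these lists 0 genes passed after adjustment in edgeR's test, which called 0% of all genes tested.

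Transcription factors of the red cell lineage are known as regulators of Alas2 and of the later enzymes. Of 9 factors, all tested, 6 were negative and 3 positive, with a median of -1.36. Both KD mice lay below both KI mice for 5 of them, where 23.5% of all genes did, and above for 2, where 14.5% did. Klf1, which binds CACCC words, lay at 1.70 and 0.259 CPM in KD mice and 9.04 and 12.3 CPM in KI mice (log2 fold change -3.42 ± 0.95, SE). Gata1, which binds GATA words, lay at 1.98 and 0.259 CPM in KD mice and 6.73 and 8.42 CPM in KI mice (-2.73 ± 1.01). Zfpm1, the partner of GATA1 also called FOG1, lay at 11.1 and 2.42 CPM in KD mice and 25.3 and 23.0 CPM in KI mice (-1.83 ± 0.73). In all 3, KD replicate 2 was the lowest library, as it was for Alas2. Each had adjusted p = 0.518 in edgeR's test. DESeq2 called Klf1 alone of the 9 (adjusted p = 0.0467), where it called 1.01% of all genes as lower. Nfe2 and Lmo2, which other blood cells also use and which were named after their values were seen, had 0.01 ± 0.27 and 0.26 ± 0.27. The 2 factors higher in both KD mice were Lmo2 and Cbfa2t3, the latter also named with its values known. Cbfa2t3 lay at 49.4 and 40.3 CPM in KD mice and 36.2 and 5.69 CPM in KI mice (1.12 ± 0.81). On the red cell marker list, the values were -3.60 ± 0.87 for Ermap, a membrane protein of red cell precursors, and -3.67 ± 0.90 for Rhd, the Rh blood group antigen.

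**Figure D4:**
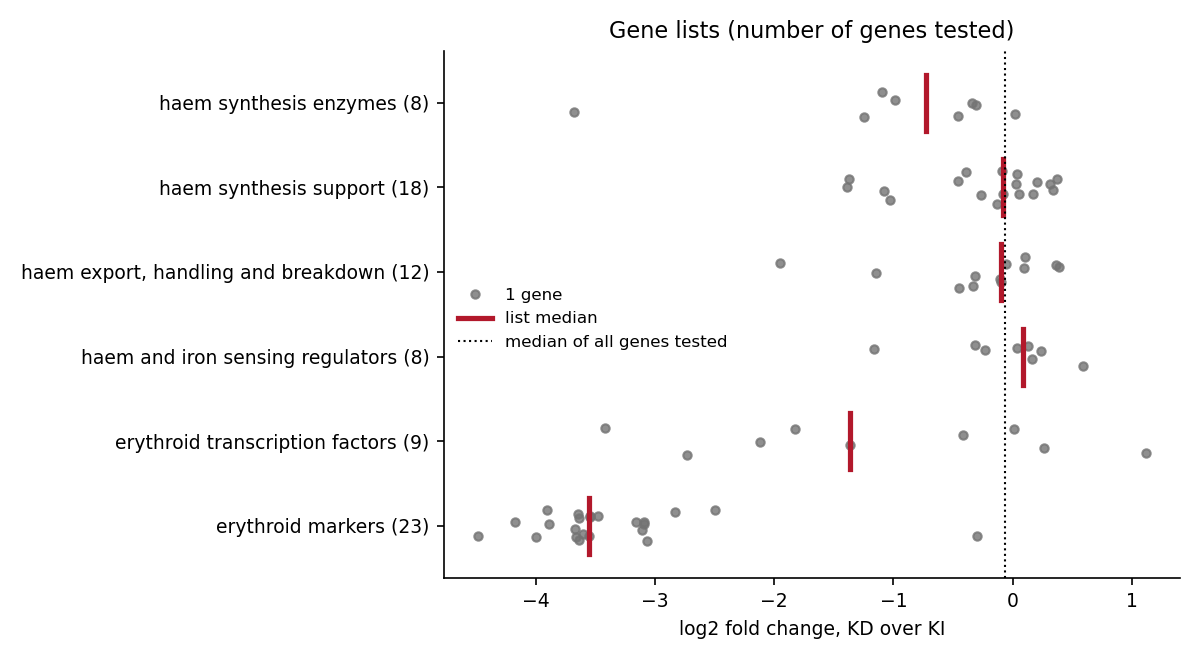
Log2 fold change of KD over KI for each tested gene (grey points, scattered vertically for clarity) of the enzymes and 5 related lists, with the list median in red and the median of all genes tested (-0.06) as a dotted line. The enzyme list has its median at -0.72 with Alas2 far to the left, the support, handling and sensing lists have medians of -0.08, -0.10 and 0.08, and the red cell markers have theirs at -3.55.

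Markers of other cells also differed in level between genotypes, and their part in the enzyme values was not tested. All 9 neutrophil granule markers were lower in both KD mice, where 23.5% of all genes were. DESeq2 called 8 of the 9 as lower, where it called 1.01% of all genes as lower. These markers summed to 3052 and 1204 CPM in KD and 15633 and 16622 CPM in KI. Monocyte markers, 8 of 8 with positive fold changes, summed to 8491 and 7915 CPM in KD and 7380 and 4272 CPM in KI. Leukocyte and blast markers, 9 of 13 positive, summed to 3965 and 5126 CPM in KD and 3062 and 4321 CPM in KI. Of all genes tested, 55.5% were negative. Both KD mice lay above both KI mice for 5 of the 8 monocyte markers and 4 of the 13 leukocyte markers, where 14.5% of all genes did. T cell markers, 9 listed, summed to 10.9 and 14.5 CPM in KD and 61.2 and 71.3 CPM in KI. Of the KI sums, Cd3e alone held 6.26 and 37.3 CPM. B cell, megakaryocyte and stromal markers, with 6, 7 and 6 genes listed, each summed to under 85 CPM in every library. No signs are counted for these 4 lists, since not all their genes passed the low-count filter and some passed through the KI libraries alone. The filter also limits the signs counted above for the red cell markers and for the export and sensing lists.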

How the data were processed

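RNA was sequenced from leukaemic cells of 4 mice, 1 library each, with a stranded mRNA kit. The authors deposited raw counts per Ensembl gene; the submitters' processing notes list HTSeq, DESeq, SAMtools and TopHat2 2.0.10, and the build GRCm38. How strand, annotation release and read filters were set is not given in the sources used here. Entries that name no gene held 93.2% to 97.9% of each file's total and were left out. Reads in no feature were 63.2% to 88.3% of those aligned uniquely. Both shares were highest in KI replicate 1, the shallowest library. Without the strand setting it cannot be told whether the counts of any gene, Alas2 included, are of sense reads. Of 41214 genes, 40254 had a symbol in the table used. Coordinates and promoter windows come from RefSeq on GRCm38.p6. The 1616 bin columns of the chromatin tables name no sample and were not used.

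Genes were kept by edgeR 4.0.16 filterByExpr (13822 genes), scaled by TMM and tested with glmQLFit and glmQLFTest in R 4.3.3 on genotype alone, with Benjamini-Hochberg adjustment at 0.05 over all genes. SE is the fold change over the square root of F. The fit was tested on simulated data. Nothing in the labels ties replicate numbers across genotypes, and p-values reflect no more than the spread of these mice. Since replicate number went with sex in both genotypes, the replicate block also adjusts for sex. The main test has no term for sex. At the depths given, 3 counts correspond to 0.212 to 0.696 CPM. Intervals cover counting error only. Alternatives were 3 other scalings, 2 other filters, DESeq2 1.42.0, limma-voom (limma 3.58.1), the replicate block and leaving out each library; chosen after seeing the data were leaving out genes above 1% of counts, and recounting the enzymes whose groups did not overlap. The enzymes, lists and naming rule (all 8 enzymes, the 3 genes of each list with the lowest p, printed for the haem and red cell lists, and the named genes closest to Alas2 and Alas1, without symbols starting with Gm or ending in Rik) were chosen with earlier results of these data known. A gene that this rule names is not reported here.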

Additional observations from a re-analysis of the deposited data

How the results depend on the processing

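Alas2, Alad, Cpox, Ppox and Fech kept a negative fold change under each of the 13 alternatives. Alas1, at 0.02, was -0.036 with upper quartile factors and -0.040 with at least 5 CPM in 2 libraries. It was -0.43 without KD replicate 2, -0.32 without KI replicate 1, and at most 0.76 in the leave-one-out fits. Uros was 0.049 and Urod 0.12 with library size only, where the median of all genes tested was 0.37. Uros was -0.59 to 0.26 when each library was left out. Alas2 passed without the low-count filter (-3.51), where 140 of 30472 genes were called lower. In the leave-one-out fits Alas2 was -7.61 to -2.69 and Cpox -1.19 to -1.08. The enzymes with KD below KI were 3 instead of 6 with library size only. The cause of these changes was not tested. Genes called lower in KD, 0 in edgeR with all 4 libraries (1153 at an unadjusted p under 0.05), numbered 140 without the filter, 139 in DESeq2, 0 in limma-voom, 7 with the replicate block, and 9 to 3846 when a library was left out. Those called higher were 0 (178 unadjusted), 29 without the filter, 5 in DESeq2, 0 with the block, and 2 to 284 when a library was left out. Numbers of genes tested differed between these fits.

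With the replicate block, which here also adjusts for sex, Alas2 had -4.33 (adjusted p = 0.265 in edgeR's test). Cpox had -1.24 (adjusted p = 0.179 in the same test), and no enzyme was called. Replicate 1 minus replicate 2 correlated between the genotypes at 0.218 across 13822 genes; with 2 pairs this does not show that the numbers pair the mice. The alternative of counts per kilobase of exon was not run, since exon lengths were not at hand. The single Alas2 count of KD replicate 2 limits every ratio that rests on it.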
